A study of Mus musculus with 30 samples.

Results

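The green fluorescent protein gene EGFP and 5 genes of mouse chromosome 11 (Sfi1, Patz1, Gm12735, Drg1 and Eif4enif1) are described here across 30 kidney libraries. They are 6 of the 57133 genes counted. The members were picked by name after earlier results of the same libraries were known, and the 5 neighbours lie within 177.2 kb of each other in GRCm39, from base 3081850 to base 3259083. The difference between genotypes was in view when they were chosen, so the members' TG against WT values are given as a description with no p-value of their own, and tests are kept for injury and sex within each genotype.

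Whole kidney was sequenced as poly-A RNA in transgenic mice (TG), whose genotype the labels write Gsta2-H2BeGFP, and in wild-type mice (WT). The groups were 6 TG and 6 WT libraries of males taken 4 hours after ischemia-reperfusion injury (IRI), which stops and restores the blood supply of the kidney, 3 TG and 3 WT libraries of males after nephrectomy alone (NX), in which a kidney is taken out, and, without surgery, 3 TG and 3 WT libraries of females and 3 TG and 3 WT libraries of males. The IRI groups are labelled as having had nephrectomy too, so IRI against NX is the injury added to nephrectomy. Neither age nor strain is given in the labels used here, nor is the time of NX, the promoter that drives EGFP or the place where the transgene was inserted. Nothing in the labels says that the libraries came from separate animals, so p-values measure only the spread between libraries, which may be technical. Totals were 59574069 to 91354407 counts in the 18 IRI and NX libraries and 49040915 to 66446450 in the 12 libraries without surgery. All 9 proximal tubule markers tested for (among them Lrp2 and Slc34a1) had counts in every library, as kidney should. EGFP counts were present in 1 of the 15 WT libraries, labelled WT IRI replicate 1 (the first library of a group, which has no number, is replicate 0), and the members' results that rest on it are given with and without it. Values of other genes after IRI include it.

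EGFP is a jellyfish reporter that no mouse carries without a transgene, and a fusion to histone H2B places it on chromatin. Sfi1 encodes a centrin-binding protein of the centrosome. Patz1 encodes a zinc finger regulator of transcription with a BTB domain, Drg1 a GTPase that works with ribosomes, and Eif4enif1 (4E-T) a carrier of the cap-binding factor eIF4E that holds messages untranslated. Gm12735 is a predicted gene with no described function. The stretch between Eif4enif1 and Drg1 is known in mouse genetics as the Hipp11 locus, a site into which transgenes are often targeted. The labels do not say whether this transgene lies there.

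By the deposited coordinates (GRCm39, chromosome 11), Sfi1 spans bases 3081850 to 3143463 on the minus strand and Gm12735 spans bases 3143516 to 3144263 on the same strand. Only 52 bases separate the first base of Sfi1 transcripts from the last base of Gm12735 transcripts. Drg1, also on the minus strand, spans bases 3137360 to 3216415, so that both Gm12735 and the plus-strand gene Eif4enif1 (bases 3152392 to 3194588) lie inside its annotated span. Patz1, on the plus strand, spans bases 3238874 to 3259083 and starts 22458 bases beyond Drg1. EGFP was counted on a sequence of its own of 720 bases. Exons of Sfi1 and Drg1 share 167 bases on the same strand (2.21% of Sfi1 and 4.83% of Drg1), and 605 bases of Patz1 exons (10.2%) are shared with the opposite-strand gene Gm12592. Whether reads were counted by strand is not given in the sources used here, so reads of these shared stretches cannot be assigned with certainty.

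Gm12735 has 2 exons of 452 and 199 bases, which add up to its transcript of 651 bases. The stretch around its exon junction (transcript bases 333 to 572, GENCODE M21) is shown because this small gene had the highest fold change of the 5 neighbours, with the 10 bases on each side of the junction in capitals.
Gm12735: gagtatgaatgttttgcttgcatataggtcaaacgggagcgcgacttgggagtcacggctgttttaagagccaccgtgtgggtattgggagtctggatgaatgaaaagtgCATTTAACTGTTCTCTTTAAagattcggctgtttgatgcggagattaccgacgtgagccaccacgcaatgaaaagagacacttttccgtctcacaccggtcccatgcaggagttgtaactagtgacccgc
RefSeq promoters (GRCm38.p6, another build than the counts) were found for 2 of the 5 neighbours, 1 whose TG libraries were higher than WT and 1 whose were not. One of 2 promoters listed for Patz1 (chr11:3290207-3290506, plus strand) and one of 4 listed for Eif4enif1 (chr11:3202103-3202402, plus strand) run from 250 bases before to 50 bases after a transcript start, with the GC box GGGCGG, searched on both strands (CCGCCC on the other), in capitals.
Patz1: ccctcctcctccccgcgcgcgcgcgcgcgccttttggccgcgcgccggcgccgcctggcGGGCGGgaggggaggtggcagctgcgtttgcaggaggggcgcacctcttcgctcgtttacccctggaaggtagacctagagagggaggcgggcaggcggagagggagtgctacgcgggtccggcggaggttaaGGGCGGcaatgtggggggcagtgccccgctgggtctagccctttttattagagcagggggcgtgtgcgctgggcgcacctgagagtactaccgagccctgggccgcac
Eif4enif1: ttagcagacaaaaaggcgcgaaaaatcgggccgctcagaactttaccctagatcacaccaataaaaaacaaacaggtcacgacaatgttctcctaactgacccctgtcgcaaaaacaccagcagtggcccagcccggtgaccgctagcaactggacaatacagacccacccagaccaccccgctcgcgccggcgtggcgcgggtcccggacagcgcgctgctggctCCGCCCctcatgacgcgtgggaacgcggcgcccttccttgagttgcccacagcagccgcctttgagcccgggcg
The Patz1 stretch holds 2 GC boxes and the Eif4enif1 stretch 1, but the other listed Patz1 promoter holds 1 and the other 3 of Eif4enif1 hold 2, 4 and 4. Of the 32851 promoters of this length in the table, 35.7% hold at least 1.

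EGFP was read in every TG library and, with 1 exception, in no WT library. In TG females without surgery it had 1294, 804 and 782 counts, and in TG males without surgery 398, 304 and 542 counts. The 6 WT libraries without surgery had 0 counts. TG NX libraries had 300, 202 and 348 counts, against 0 in each WT NX library. TG IRI libraries had 122, 106, 86, 162, 272 and 456 counts, against 206 in the library labelled WT IRI replicate 1 and 0 in the other 5 WT IRI libraries. Groups of TG and WT libraries overlapped only after IRI, through that library. Every EGFP count was even in the 16 libraries that had any, so its fragments may have been counted by both mates, which was not tested. Each of the 5 neighbours had odd counts in 6 to 10 of the 18 IRI and NX libraries and in 6 to 7 of the 12 libraries without surgery.

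As CPM, the count scaled to library size in the usual way, EGFP averaged 14.9 ± 3.4 CPM in TG females and 6.82 ± 1.75 CPM in TG males without surgery (SD, n = 3 each). In the IRI and NX table, which was scaled separately, it averaged 2.82 ± 1.94 CPM in TG IRI libraries (SD, n = 6) and 3.66 ± 0.847 CPM in TG NX libraries (SD, n = 3). With a floor of 3 counts over each WT group, which covers counting error only, EGFP was at least 870-fold higher in TG females against WT females and at least 372-fold higher in TG males against WT males, both without surgery. For TG NX against WT NX libraries the bound was 235-fold. Without the library labelled WT IRI replicate 1 the bound after IRI was 325-fold for TG against WT, and with it the fitted difference was 2.67 ± 1.16 on the log2 scale. Counting by mates would make these bounds too high.

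**Figure D1:**
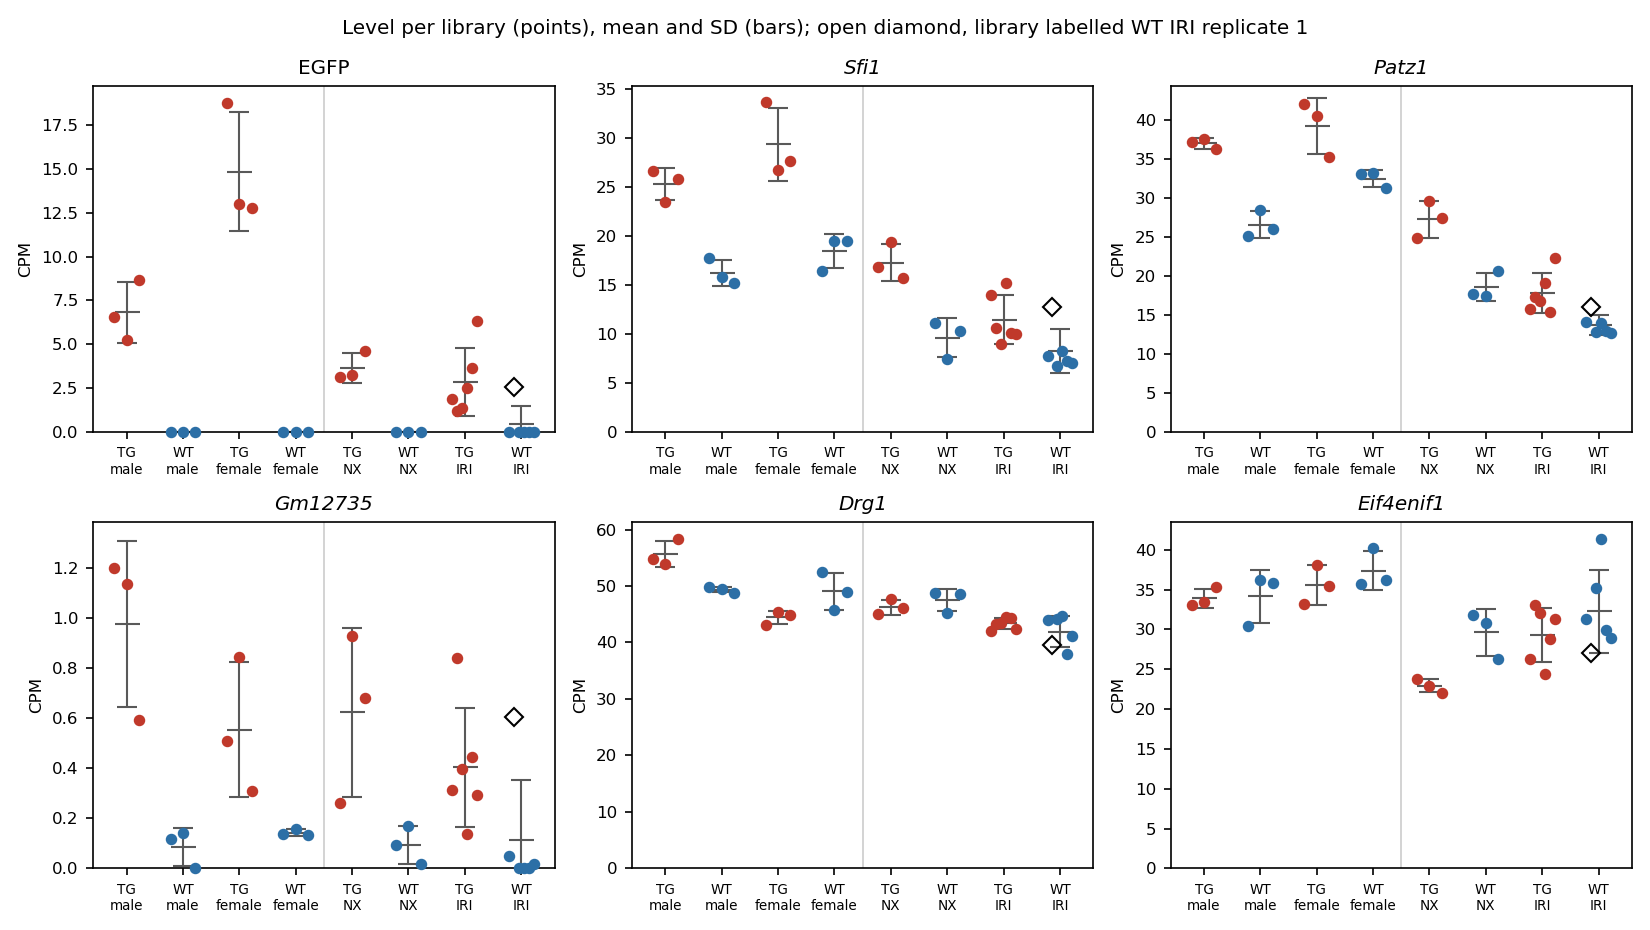
Level of EGFP and of its 5 chromosome 11 neighbours in CPM (y axis) in each of 30 libraries, by group (x axis, TG left of WT; the grey line separates the tables without surgery and with NX or IRI, which were scaled separately). Points are libraries, bars the mean and SD cut at 0, and the open diamond is the library labelled WT IRI replicate 1, which lies among the TG IRI points for EGFP, Sfi1, Patz1 and Gm12735.

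Sfi1, the gene on the far side of Gm12735, was higher in TG libraries in all 4 conditions. It had 26.6, 23.4 and 25.8 CPM in TG males without surgery, against 17.7, 15.8 and 15.2 CPM in WT males. In females it had 33.6, 26.7 and 27.6 CPM in TG libraries, against 16.4, 19.4 and 19.5 CPM in WT libraries. The lowest TG library lay above the highest WT library in both sexes. After NX it had 16.8, 19.3 and 15.7 CPM in TG libraries, against 11.1, 7.38 and 10.3 CPM in WT libraries. After IRI it ran from 8.99 to 15.2 CPM in the 6 TG libraries (median 10.3), against 6.73 to 12.8 CPM in the 6 WT libraries (median 7.44). The WT value of 12.8 CPM belongs to the library labelled WT IRI replicate 1, and the other 5 WT IRI libraries ended at 8.22 CPM, below every TG library. The log2 differences (TG over WT ± SE) were 0.64 ± 0.11 in males, 0.67 ± 0.11 in females, 0.84 ± 0.17 after NX and 0.46 ± 0.17 after IRI, the last of which was 0.62 without that library.

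Patz1, which lies beyond Drg1 on the other side, was also higher in TG libraries, by smaller log2 values in each condition. It had 37.2, 37.6 and 36.3 CPM in TG males without surgery, against 25.2, 28.6 and 26.0 CPM in WT males, and 42.1, 40.6 and 35.2 CPM in TG females, against 33.1, 33.2 and 31.3 CPM in WT females. After NX it had 24.9, 29.6 and 27.4 CPM in TG libraries, against 17.7, 17.5 and 20.7 CPM in WT libraries. The genotypes did not overlap in any of these 3 conditions. After IRI it ran from 15.3 to 22.4 CPM in TG libraries (median 17.1), against 12.7 to 16.1 CPM in WT libraries (median 13.4). Again the highest WT value was that of the library labelled WT IRI replicate 1, and without it the WT libraries ended at 14.1 CPM. The log2 differences were 0.48 ± 0.08 in males, 0.27 ± 0.08 in females, 0.55 ± 0.12 after NX and 0.36 ± 0.10 after IRI, the last of which was 0.41 without that library.

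Gm12735 was scarce, with 0 to 11 counts in the WT libraries other than the one labelled WT IRI replicate 1. TG males without surgery had 73, 66 and 37 counts, against 6, 9 and 0 in WT males, and TG females had 35, 52 and 19 counts, against 8, 9 and 8 in WT females. After NX there were 25, 58 and 51 counts in TG libraries, against 6, 11 and 1 in WT libraries. After IRI there were 20, 75, 25, 9, 33 and 21 counts in TG libraries, against 48 in the library labelled WT IRI replicate 1 and 4, 0, 0, 0 and 1 in the other 5 WT libraries. No TG library fell within the WT range of its condition once that library was set aside. The log2 differences were 3.43 ± 0.71 in males, 1.94 ± 0.66 in females, 2.71 ± 0.79 after NX and 1.79 ± 0.95 after IRI, and the last was 4.66 without that library. With so few counts these folds are imprecise, as their errors show.

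Drg1 and Eif4enif1 did not share this pattern. Drg1 had 54.8, 53.9 and 58.3 CPM in TG males without surgery, against 49.8, 49.4 and 48.8 CPM in WT males. In females the order was the other way, with 43.1, 45.3 and 44.9 CPM in TG libraries, against 52.4, 45.7 and 49.0 CPM in WT libraries. Its log2 differences were 0.17 ± 0.06 in males, -0.14 ± 0.06 in females, -0.04 ± 0.09 after NX and 0.04 ± 0.06 after IRI (0.02 without the library labelled WT IRI replicate 1), and its genotypes overlapped after both operations. Eif4enif1 overlapped between genotypes in males, in females and after IRI, with log2 differences of -0.01 ± 0.09, -0.07 ± 0.09 and -0.15 ± 0.10 (-0.20 without that library). After NX all its TG libraries (23.7, 22.9 and 22.1 CPM) lay below its WT libraries (31.9, 30.8 and 26.3 CPM), a log2 difference of -0.38 ± 0.11.

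The share of all tested genes that behaved in these ways differed by condition. All TG libraries lay above all WT libraries for 4.52% of 19126 tested genes in males and for 8.49% of 19126 in females without surgery, for 6.62% of 17100 after NX and for 0.327% of 17111 after IRI (0.713% without the library labelled WT IRI replicate 1). The share with all TG libraries below all WT libraries in a single condition was not counted. Drg1 in females and Eif4enif1 after NX therefore have no such share beside them. With every library in, 0.0% of the 16299 genes tested in all 4 conditions (0 genes) lay above WT in each condition. Without that library 4 genes did, or 0.0245%, and these were EGFP, Sfi1, Patz1 and Gm12735, while no gene of the 57133 counted lay below WT in each condition. Since these genes were picked for the genotype difference, the counts describe the choice and support nothing.

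By edgeR's quasi-likelihood test with Benjamini-Hochberg adjustment over all genes tested, EGFP was called in TG against WT after NX and in both sexes without surgery, and Sfi1 was called beside it where the sexes were fitted together. The share of all genes called was 0.0701% after IRI, 0.0117% after NX, 0.00523% in males, 0.0418% in females and 0.0107% with both sexes together. None of the 5 neighbours was called by edgeR in the other comparisons, where 2 (IRI) or 4 (NX, males, females) had an unadjusted p under 0.05. Of all genes tested, 14.1% had one after IRI, 6.77% after NX, 5.22% in males, 9.09% in females and 5.31% with both sexes together. DESeq2 called 1 of the 5 after IRI, 2 after NX, 3 in males, 1 in females and 3 with both sexes together, and of all genes 2.27% after IRI, 0.268% after NX, 0.0683% in males, 1.39% in females and 0.0646% with both sexes together. These counts use the contrast by which the genes were picked, and nothing is read from them.

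The wider stretch around the neighbours showed no common shift between genotypes. Of 66 genes on chromosome 11 from 1 Mb before the first to 1 Mb after the last neighbour, 40 were tested after IRI, and the 35 that are not among the 5 neighbours had a median log2 difference of -0.04, with 15 of 35 above 0. No gene of this chromosome is listed before base 3073994, so nearly all lie on the Patz1 side. The corresponding medians were 0.00 after NX (35 genes), -0.04 in males and -0.06 in females (37 genes each), against medians of the 5 neighbours of 0.36 after IRI (0.41 without the library labelled WT IRI replicate 1), 0.55 after NX, 0.48 in males and 0.27 in females. The medians over all genes tested were -0.01 after IRI and 0.00 in the other 3 comparisons. Since the 5 neighbours were picked for the genotype difference, their higher medians describe the choice and support nothing. edgeR called 0 of these other genes in any of the 4 comparisons, DESeq2 called 1 after IRI and 1 in females, and 8 of the 35 had an unadjusted p under 0.05 after IRI (4 after NX, 3 of 37 in each sex). Inside or across the span of the 5 neighbours themselves, however, 4 other genes were tested, and all 4 had a log2 difference above 0 after IRI (median 0.51), after NX (median 0.91) and in females (median 0.35), as did 2 of the 4 in males. All 4 had large errors; for Gm11400, named after its values were seen, the difference was 2.003 ± 0.62 after NX and -0.72 ± 0.56 in males. Of the other 3, Gm12592 and Gm11944 share exon bases with Patz1, and 1 gene without a symbol shares bases with Sfi1.

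Among these genes the highest TG against WT values after IRI belonged to Sec14l4, a lipid-binding protein gene (1.20 ± 0.35), and to Gm12592, which shares exon bases with Patz1 (1.14 ± 0.83). The lowest belonged to Osm, the gene of the cytokine oncostatin M (-1.72 ± 0.72), and to Pla2g3, a secreted phospholipase (-0.89 ± 0.52). Sec14l4 had the opposite sign in males (-1.01 ± 0.50), and Gm12592 lay near 0 there (-0.11 ± 0.53). Being above 0 in all 4 conditions was not particular to Sfi1, Patz1 and Gm12735. Gm11944 had 0.31 ± 0.42 after IRI, 0.94 ± 0.48 after NX, 0.83 ± 0.44 in males and 0.54 ± 0.43 in females. The gene without a symbol that shares bases with Sfi1 had 0.02 ± 0.27, 0.32 ± 0.55, 0.34 ± 0.27 and 0.28 ± 0.26 in the same order.

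**Figure D2:**
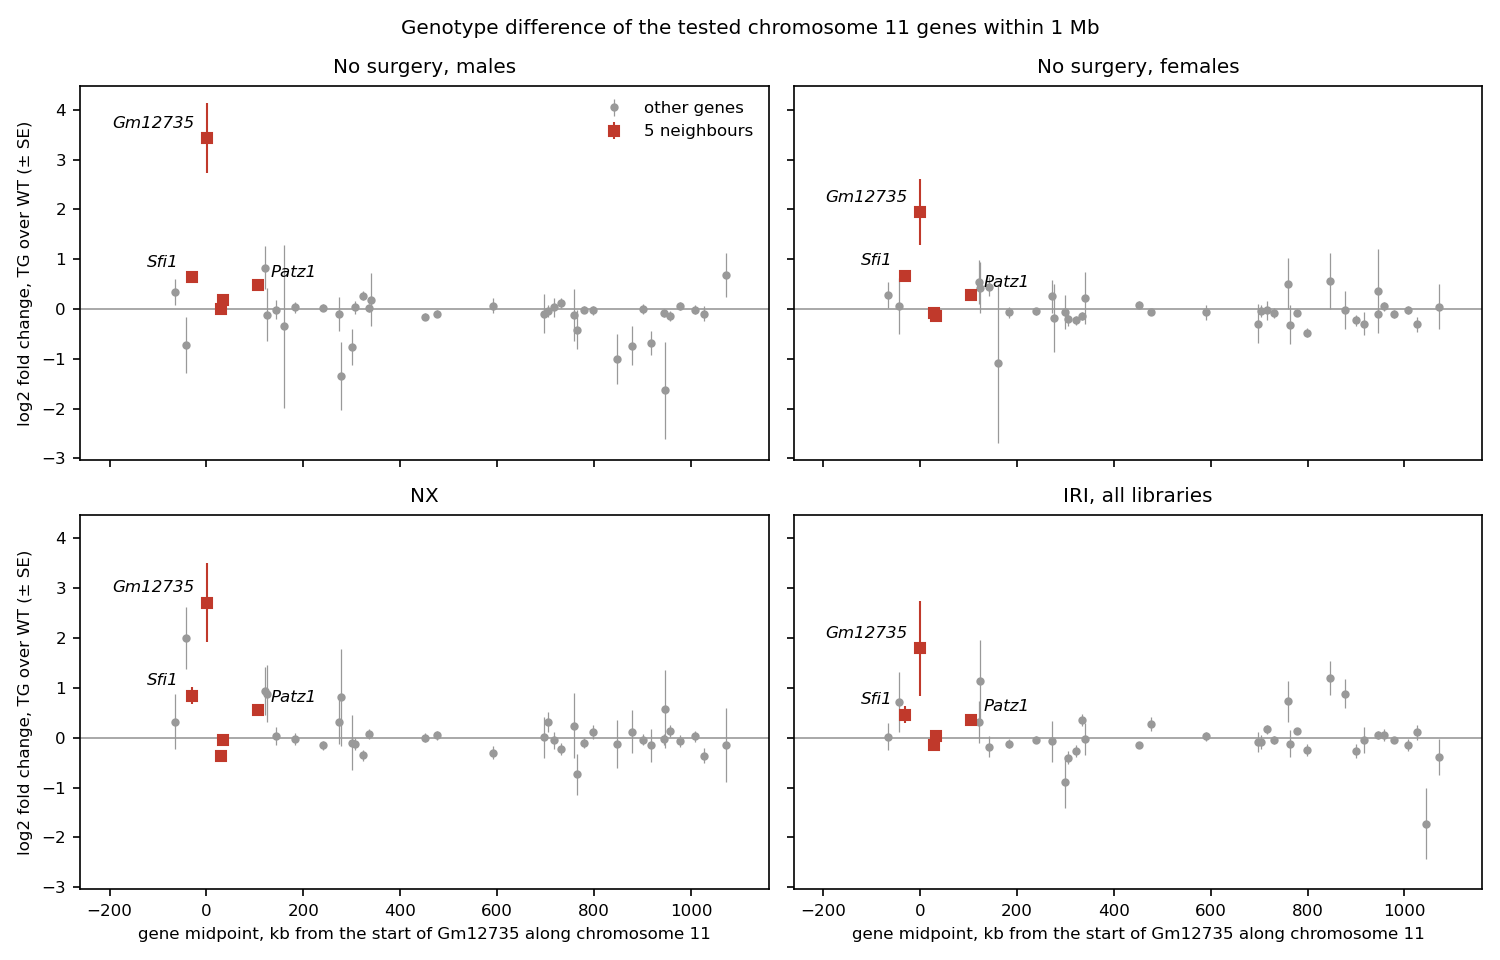
Log2 fold change of TG over WT (y axis, ± SE) for the tested genes of chromosome 11 within 1 Mb of the 5 neighbours, against the distance of each gene's midpoint from the start of Gm12735 (x axis, kb), in 4 comparisons. Red squares are the 5 neighbours and grey points the other genes; Gm12735, Sfi1 and Patz1 lie above 0 in each panel, while the other genes have medians of -0.06 to 0.00.

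Red cell marker sums ran lower in TG than in WT libraries after surgery, without overlap after NX and with overlap after IRI. The 5 listed genes summed to 28.6 to 148 CPM in TG IRI libraries, against 110 to 1298 CPM in WT IRI libraries, and to 3.64 to 18.7 CPM in TG NX libraries, against 35.6 to 119 CPM in WT NX libraries. Without surgery the sums overlapped, at 17.6 to 71.9 CPM in TG males and 18.8 to 212 CPM in WT males, and at 13.8 to 52.1 CPM in TG females and 16.8 to 26.9 CPM in WT females. The share of all genes with TG below WT after NX was not counted, while 6.62% of 17100 tested genes had all TG libraries above all WT libraries there. All 5 markers had a count in every library. The library labelled WT IRI replicate 1 had 346 CPM, inside the WT range and above every TG IRI library. The part of these markers in the genotype differences was not tested.

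Per kilobase of the length counted for each gene, a rough scale for comparing genes, Drg1 had the highest level of the members in TG males without surgery (16.1 ± 0.676 CPM per kb, SD, n = 3). EGFP followed at 9.47 ± 2.43, Patz1 at 6.28 ± 0.114, Eif4enif1 at 5.33 ± 0.189, Sfi1 at 3.34 ± 0.217 and Gm12735 at 1.5 ± 0.511 CPM per kb. In TG IRI libraries the order was Drg1 (12.5 ± 0.302), Eif4enif1 (4.6 ± 0.536), EGFP (3.92 ± 2.7), Patz1 (3.02 ± 0.438), Sfi1 (1.51 ± 0.33) and Gm12735 (0.620 ± 0.366; SD, n = 6 each). There the level of EGFP overlapped that of Patz1 and of Eif4enif1 within its spread. The length takes in all exons listed for a gene (329 for Sfi1, 1 for EGFP), so the order is approximate. Counting EGFP by both mates would also make its level too high.

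Injury with nephrectomy was set against nephrectomy alone within each genotype, a contrast other than the one by which the genes were picked. In TG kidneys 29.4% of 19264 tested genes were called by edgeR, and 3 of the 5 neighbours were among them. Patz1 fell after IRI, with 15.8, 17.4, 16.9, 19.1, 15.3 and 22.4 CPM in TG IRI libraries, against 24.9, 29.6 and 27.4 CPM in TG NX libraries (log2 -0.62 ± 0.11, edgeR adjusted p = 0.000338). All 6 IRI libraries lay below all 3 NX libraries, but the share of all genes separated by injury in this way was not counted. Sfi1 fell as well, with 13.9, 10.5, 8.99, 15.2, 10.03 and 9.93 CPM in TG IRI libraries, against 16.8, 19.3 and 15.7 CPM in TG NX libraries (log2 -0.59 ± 0.20, edgeR adjusted p = 0.0274). Its groups did not overlap either, but the call was lost, at adjusted p up to 0.128, without any 1 of 6 TG libraries (NX replicates 0 and 1, IRI replicates 1, 2, 4 and 5). Eif4enif1 rose, with 24.4 to 33.0 CPM in TG IRI libraries (median 30.02), against 22.1 to 23.7 CPM in TG NX libraries (log2 0.35 ± 0.12, edgeR adjusted p = 0.0369). That call was also lost without any 1 of 6 TG libraries (NX replicates 0, 1 and 2, IRI replicates 1, 2 and 5; adjusted p up to 0.126). Without the library labelled WT IRI replicate 1, which shares the fit, all 3 calls in TG held (edgeR adjusted p = 0.000278 for Patz1, 0.00841 for Sfi1 and 0.0315 for Eif4enif1).

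EGFP did not pass the test between IRI and NX in TG kidneys when all libraries were used. Its log2 difference was -0.37 ± 1.19 (edgeR adjusted p = 0.855), with 1.90, 1.19, 1.36, 2.49, 3.66 and 6.34 CPM in TG IRI libraries and 3.12, 3.23 and 4.64 CPM in TG NX libraries. Of the 6 IRI libraries, 4 lay below the NX libraries, 1 among them and 1 above. The fit shares its spread with the WT libraries. Without the library labelled WT IRI replicate 1 the difference was -0.37 ± 0.46 (adjusted p = 0.603), and from the TG libraries alone -0.38 ± 0.45 (adjusted p = 0.56). Gm12735 had -0.61 ± 1.03 (edgeR adjusted p = 0.712) and Drg1 -0.09 ± 0.07 (edgeR adjusted p = 0.339), and neither passed without that library (adjusted p = 0.561 and 0.348).

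In WT kidneys 30.9% of 19264 genes were called after IRI against NX, and 2 of the 5 neighbours were. Patz1 fell in WT too, with 12.7 to 16.1 CPM in WT IRI libraries (median 13.4), against 17.7, 17.5 and 20.7 CPM in WT NX libraries (log2 -0.44 ± 0.11, edgeR adjusted p = 0.00636; the call was lost without WT NX replicate 2, adjusted p = 0.0681, and held without the library labelled WT IRI replicate 1, -0.49, adjusted p = 0.00327). Drg1 fell slightly, with 38.0 to 44.6 CPM in WT IRI libraries, against 45.2 to 48.7 CPM in WT NX libraries (log2 -0.18 ± 0.07, edgeR adjusted p = 0.0476), a call lost without the library labelled WT IRI replicate 1 (adjusted p = 0.0881) and without any 1 of 6 other WT libraries (NX replicates 0, 1 and 2, IRI replicates 2, 4 and 5). Sfi1 had -0.22 ± 0.20 (adjusted p = 0.455) and Eif4enif1 0.12 ± 0.12 (adjusted p = 0.494) by the same edgeR test, and without that library -0.38 ± 0.17 (adjusted p = 0.0973) and 0.17 ± 0.12 (adjusted p = 0.328). Gm12735 had 0.30 ± 1.19 (edgeR adjusted p = 0.878), a value that turned to -2.57 ± 0.96 (adjusted p = 0.0507) without that library and to -0.17 without WT NX replicate 2, so no direction is given for it. With all libraries in, edgeR called 0 of 19264 genes for a response to injury that differed between genotypes. No p-value is given for the members, since that difference contains the genotype contrast. It was -0.18 ± 0.16 (TG minus WT, log2) for Patz1 and -0.38 ± 0.28 for Sfi1, and -0.13 ± 0.16 and -0.21 ± 0.23 without that library. Over the 5 neighbours the median log2 change was -0.59 in TG and -0.18 in WT (-0.59 and -0.38 without that library), beside -0.01 over all genes in each.

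The summed proximal tubule markers ran from 26359 to 31354 CPM in TG IRI libraries, against 29702 to 36660 CPM in TG NX libraries. In WT they ran from 24169 to 28477 CPM after IRI, against 35537 to 41904 CPM after NX. All 9 markers had counts in every library, and their part in the changes of Patz1 and Sfi1 was not tested. In whole kidney, fewer cells of a type and less RNA per cell cannot be told apart.

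Sex was compared within each genotype in the libraries without surgery. In TG kidneys 21.2% of 19126 genes were called, and of the 6 genes described here EGFP and Drg1 were. EGFP was 2.18-fold higher in TG females, with 18.8, 13.03 and 12.8 CPM, against 6.53, 5.23 and 8.69 CPM in TG males (log2 1.12 ± 0.23, edgeR adjusted p = 0.00955). The lowest female library lay above the highest male library, and the difference stayed between 0.92 and 1.34 when any 1 of the 6 libraries was left out. The share of all genes that separated the sexes in this way was not counted. Drg1 was lower in TG females, with 43.1, 45.3 and 44.9 CPM, against 54.8, 53.9 and 58.3 CPM in TG males (log2 -0.32 ± 0.06, edgeR adjusted p = 0.00313). In WT kidneys Drg1 did not differ by sex beyond its error (-0.01 ± 0.06, adjusted p = 0.945). The sex difference of Drg1 was not called by edgeR as differing between genotypes. No p-value is given for that, since it contains the genotype contrast.

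The other neighbours gave smaller differences between the sexes. In WT kidneys, where 21.3% of 19126 genes were called, Patz1 was higher in females, with 33.1, 33.2 and 31.3 CPM, against 25.2, 28.6 and 26.0 CPM in males (log2 0.29 ± 0.08, edgeR adjusted p = 0.0195). The call was lost without any 1 of 4 WT libraries (female replicates 0 and 1, male replicates 0 and 2), at adjusted p up to 0.0814. In TG kidneys Patz1 had 0.09 ± 0.08 (adjusted p = 0.496), Sfi1 0.21 ± 0.11 (adjusted p = 0.194), Gm12735 -0.82 ± 0.60 (adjusted p = 0.384) and Eif4enif1 0.07 ± 0.09 (adjusted p = 0.637) by the same edgeR test. The summed proximal tubule markers, which include the androgen-dependent gene Kap, were lower in TG females (19539 to 23479 CPM) than in TG males (29100 to 36105 CPM). Their part in the EGFP difference, which runs the other way, was not tested.

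**Figure D3:**
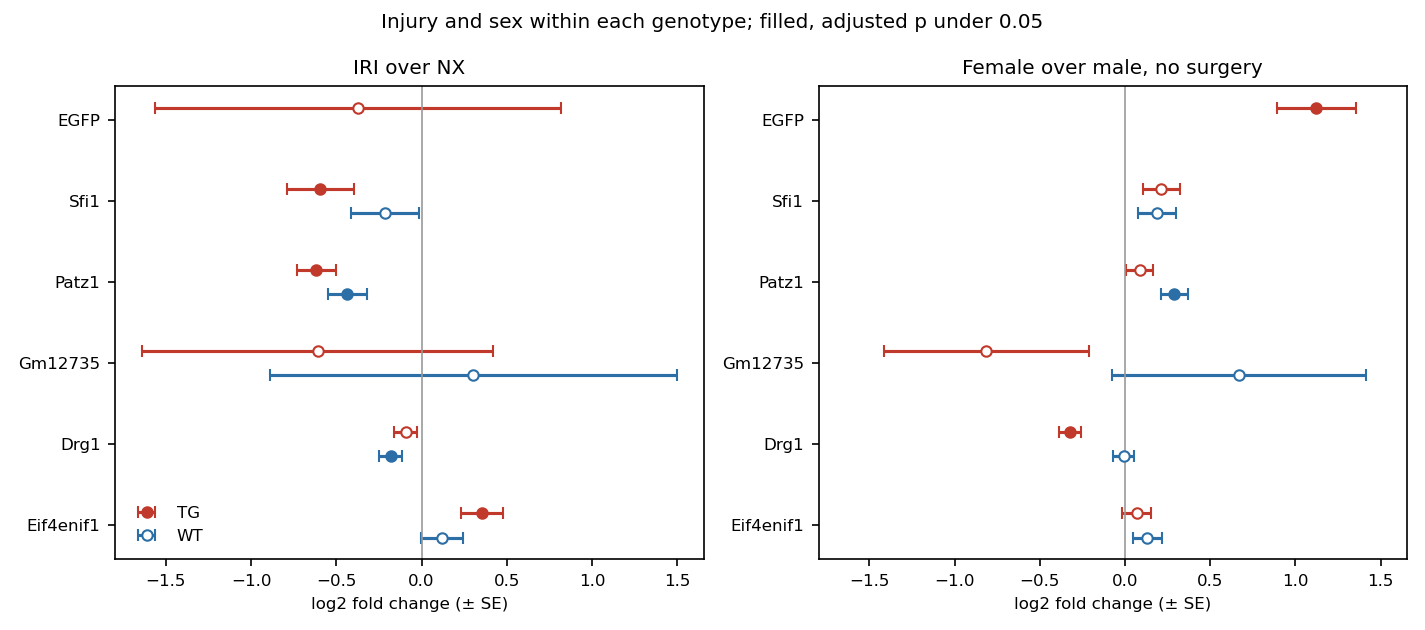
Log2 fold change (x axis, ± SE) of EGFP and its 5 neighbours after IRI over NX (left) and in females over males without surgery (right), in TG (red) and WT (blue) kidneys; filled points have an edgeR adjusted p under 0.05 over all genes. EGFP is not drawn for WT, where 14 of 15 libraries had 0 counts; Patz1 lies below 0 after IRI in both genotypes, and EGFP lies at 1.12 in the sex comparison.

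Gsta2, the glutathione transferase that the transgene is named for, served as a reference for EGFP. It averaged 50.7 ± 18.8 CPM in TG males and 96.2 ± 8.22 CPM in WT males, and 323 ± 26.4 CPM in TG females and 322 ± 27.6 CPM in WT females (SD, n = 3 each). After NX it averaged 111 ± 61.9 CPM in TG and 70.6 ± 11.4 CPM in WT libraries (SD, n = 3 each), and after IRI 77.4 ± 9.73 CPM in TG and 84.1 ± 33.3 CPM in WT libraries (SD, n = 6 each; 87.2 ± 36.3 CPM in WT without the library labelled WT IRI replicate 1, n = 5). Its counts do not separate a transgene from the mouse gene, and no genotype difference of Gsta2 was called by edgeR. In males, however, all its TG libraries lay below all its WT libraries, and the share of all genes that did so was not counted. Gsta2 also had the smallest edgeR p of the alpha-class transferases in males, where DESeq2 called 1 of that family. The log2 differences (TG over WT ± SE) were -0.92 ± 0.19 in males, 0.01 ± 0.18 in females, 0.64 ± 0.32 after NX and -0.14 ± 0.20 after IRI (-0.19 without that library). In males the share of EGFP is thus set against less Gsta2 than WT males had. Per kilobase, EGFP stood at 25.8, 11.8 and 36.9% of Gsta2 in TG males without surgery, and at 9.05, 6.3 and 7.13% in TG females. It stood at 7.01, 2.9 and 9.8% in TG NX libraries and at 2.73 to 11.9% in TG IRI libraries (median 5.01%). Counting EGFP by both mates would make these shares too high. The higher share in males went with less Gsta2, which had 35.1, 61.4 and 32.7 CPM per kb in TG males, against 288, 287 and 249 CPM per kb in TG females. Between the sexes Gsta2 was 6.38-fold higher in TG females (log2 2.67 ± 0.20, edgeR adjusted p = 2.01e-06) and EGFP 2.18-fold. Among the 6 TG IRI libraries EGFP spanned 1.65 to 8.81 CPM per kb, while Gsta2 stayed between 52.3 and 74.1 CPM per kb. The library labelled WT IRI replicate 1 had 3.59 CPM per kb of EGFP, or 6.13% of its Gsta2, which is between the lowest and highest TG IRI values.

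**Figure D4:**
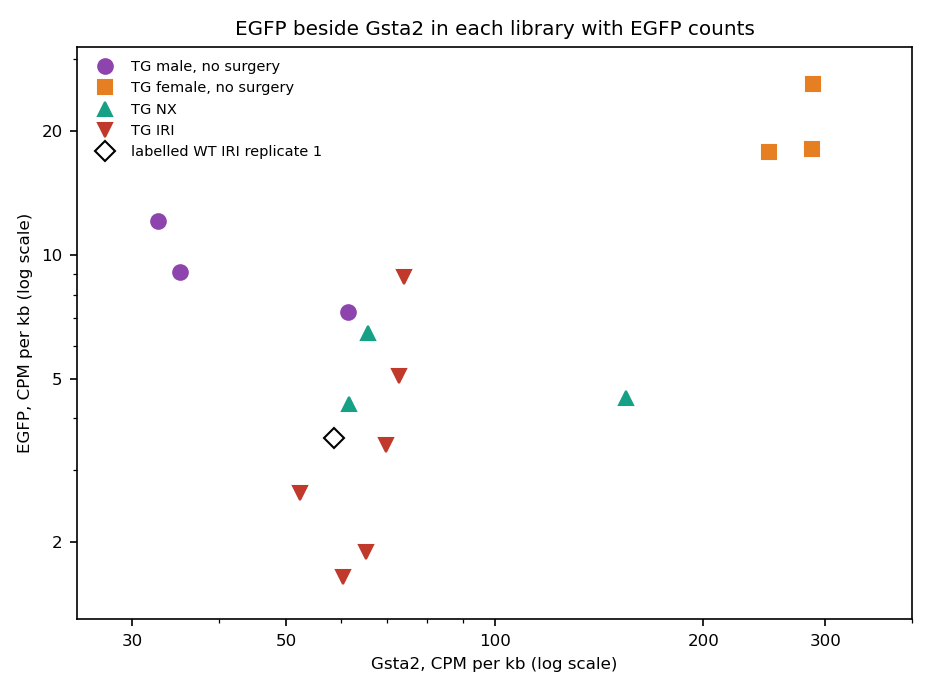
EGFP (y axis) against Gsta2 (x axis), both in CPM per kb on log scales, in the 15 TG libraries and the library labelled WT IRI replicate 1 (open diamond). TG females lie at the upper right, at 249 to 288 CPM per kb of Gsta2, and the TG IRI libraries spread along the EGFP axis from 1.65 to 8.81 CPM per kb.

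The genes most like EGFP over the 30 libraries were its own neighbours. On log2(CPM + 0.5) centred within each condition, and over 13593 genes with a mean of at least 1 CPM, Pearson's r with EGFP was 0.84 for Sfi1 and 0.84 for Patz1, the 2 highest of all, and 0.84 for each without the library labelled WT IRI replicate 1. The next was Acad12, an acyl-CoA dehydrogenase gene on chromosome 5, at 0.64. The 2 lowest were Eef1b2, a translation elongation factor (-0.73), and Rpl26, a ribosomal protein gene (-0.71). Drg1 stood at -0.02, Eif4enif1 at -0.44 and Gsta2 at -0.18, and Gm12735 fell below the level needed. Since EGFP is at 0 in 14 libraries, this likeness largely follows the genotype labels, which the choice of genes already used.

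Within the 15 TG libraries alone the order was another. Sfi1 had r of 0.00 with EGFP and Patz1 0.49 (rank 772 of 13593). The highest were Sv2a, a synaptic vesicle protein gene (0.92), Zfp763, a zinc finger gene (0.89), and Pou3f3, a transcription factor of the developing kidney tubule (0.88). These values rest on 15 points that share tables and depth, are the extremes of 13593 genes, and are descriptions only.

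Known partners of the neighbours' proteins were counted as a list, 16 of 17 of which were tested. In TG against WT, edgeR and DESeq2 each called 0 of 16 in each comparison, and 0 to 3 had an unadjusted p under 0.05. After IRI, where 3 did, Rnf4, a ubiquitin ligase that binds Patz1, had the smallest p (log2 0.22 ± 0.07, edgeR adjusted p = 0.243). After IRI against NX, 5 rose and 2 fell in TG, and 4 rose and 3 fell in WT, beside 29.4% and 30.9% of all genes called. Eif4e, which codes for the cap-binding factor carried by the product of Eif4enif1, rose in TG (0.70 ± 0.11, edgeR adjusted p = 9.67e-05) and in WT (0.50 ± 0.11, adjusted p = 0.00193). Patl1, of the same RNA bodies, rose in TG (0.56 ± 0.10, edgeR adjusted p = 0.00035) and in WT (0.36 ± 0.10, adjusted p = 0.0111), and Lsm14b fell in TG (-0.27 ± 0.08, adjusted p = 0.0106) and in WT (-0.21 ± 0.08, adjusted p = 0.0437). Rnf4 rose in TG (0.68 ± 0.09, edgeR adjusted p = 1.51e-05) and in WT (0.36 ± 0.09, adjusted p = 0.00458), and Zc3h15, the binding partner of Drg1, rose in TG (0.35 ± 0.10, adjusted p = 0.00843) and in WT (0.40 ± 0.10, adjusted p = 0.00359). Cetn2, a centrin that Sfi1 binds, fell in TG (-0.26 ± 0.09, edgeR adjusted p = 0.038) and in WT (-0.33 ± 0.09, adjusted p = 0.00866). The others called were Eif4e2 in TG (0.23 ± 0.07, adjusted p = 0.0195) and Cnot1 in WT (-0.35 ± 0.09, adjusted p = 0.00462).

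Between the sexes only Eif4e, lower in TG females (-0.31 ± 0.07, edgeR adjusted p = 0.0111), and Cnot1, lower in WT females (-0.26 ± 0.06, adjusted p = 0.00778), were called among the 16 partners. Of the alpha-class transferases, the family of Gsta2, 6 of 7 were tested, and 5 were higher in TG females and 6 in WT females, beside 21.2% and 21.3% of all genes called. Gsta4 had the smallest p (2.18 ± 0.13 in TG, edgeR adjusted p = 2.36e-07, and 2.29 ± 0.13 in WT, adjusted p = 1.67e-07), and Gsta1, Gsta3 and Gm10639 were called in both genotypes. After IRI against NX, Gsta3 fell in TG (-0.47 ± 0.13, edgeR adjusted p = 0.0125) and in WT (-0.46 ± 0.13, adjusted p = 0.0137), and Gsta1 rose in WT (1.66 ± 0.57, adjusted p = 0.0316). In TG against WT edgeR called 0 of them in any condition, and DESeq2 called 1 in males. By edgeR 1 of them, Gsta2, had an unadjusted p under 0.05 in males and with both sexes together.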

How the data were processed

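Kidney RNA was isolated by RNeasy column, enriched for poly-A and read from both ends, per the labels. Per the submitters' processing notes the authors used fastp 0.23.2, STAR 2.7.0 and featureCounts 2.0.3 with GRCm39 (mm39); the Ensembl annotation with an added EGFP sequence is named in the file headers. The deposited tables, 2 of them with 57133 rows each, hold raw, unscaled counts. Whether reads were counted by strand, singly or as pairs is not given in the sources used here, so halved counts were tried.

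Symbols were matched by identifier in GENCODE M21 (90.8% of identifiers). CPM are counts scaled by TMM library sizes, computed per table. Differences were tested two-sided with edgeR 4.0.16 (quasi-likelihood, TMM, filterByExpr, Benjamini-Hochberg threshold 0.05) in R 4.3.3: the 12 IRI libraries, the 6 NX libraries, the 12 libraries without surgery, or all 18 IRI and NX libraries for injury. SE is the log2 fold change divided by the square root of F. The test was checked on simulated counts. Alternatives were RLE factors, no count filter, DESeq2 1.42.0, halved counts, replicate number as a block, other libraries in the fit and leaving out each library. Injury fits without the library labelled WT IRI replicate 1 or without WT libraries were added after seeing the values.

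Same-numbered TG and WT libraries deviated together (every correlation over 0.1) in males without surgery only (0.10 to 0.54 over 3 pairs), and the pairing comes from the data, not from the labels.

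The members, lists and tests were chosen with earlier results of these data known. Named genes beyond the members followed a rule on rank in the window, likeness to EGFP and calls in the lists of partners and transferases. One gene that the rule names is not reported here.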

Additional observations from a re-analysis of the deposited data

Results flagged for a closer look

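Within the 6 WT IRI libraries, the one labelled replicate 1 stood far from the others for 3 of the 6 genes described: EGFP at 2.59 CPM (gap over range 1), Sfi1 at 12.8 CPM (0.752) and Gm12735 at 0.603 CPM (0.918), where 0.625 is the limit for 6 libraries. Of 14 such groups looked at, chance alone flags about 1 in 20. Its Patz1 value (16.1 CPM) was also the highest of the WT IRI libraries, while its red cell markers (346 CPM) lay inside the WT range. The members' results that rest on it are given with and without it.

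Drg1 lay on opposite sides of WT in the 2 sexes without surgery: every TG male library was above every WT male library, and every TG female library was below every WT female library. In males 4.52% of 19126 tested genes had all TG libraries above all WT libraries. The share below in females, or on opposite sides in the 2 sexes, was not counted, so how common this is among all genes is not known. The difference of the log2 changes (females minus males) was -0.32 ± 0.09. edgeR did not call this difference over the 19126 genes tested. It is a description with no p-value given, since it is made of the genotype contrast by which the genes were picked.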

How the results depend on the processing

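EGFP (females against males in TG), Drg1 (females against males in TG) and Patz1 (IRI against NX in TG) kept their direction and their calls in every alternative run, and no called value changed sign. Of the members' uncalled values, Gm12735 for IRI against NX in WT turned to -2.57 without the library labelled WT IRI replicate 1 and to -0.17 without WT NX replicate 2, and values near 0 (Drg1 between the sexes in WT, Drg1 in both sexes, Eif4enif1 in males) changed sign when a library was left out. Leaving out each library, the log2 change of EGFP ran from -0.79 to -0.17 for IRI against NX in TG, and from 0.92 to 1.34 between the sexes. The number of the 5 neighbours called ran from 1 to 3 for IRI against NX in TG (3 with all libraries), from 0 to 2 in WT (2 with all libraries), and from 0 to 1 between the sexes in WT. RLE factors and no count filter each left 1 called for IRI against NX in WT. Without the library labelled WT IRI replicate 1, 4 genes in place of 0 were above WT in each of the 4 conditions.

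By the rule that every same-numbered pair correlates over 0.1, the numbers pair TG with WT in males without surgery, where the block changed no call, and in none of the other comparisons checked. Of the 15 pairs of TG and WT libraries 9 were over 0.1 (range -0.04 to 0.54), and 9 TG libraries correlated best with their own number, which is a hint and not the design. For IRI against NX in TG 1 of 3 pairs was over 0.1 (0.05 to 0.13), in WT 2 of 3, and between the sexes 2 of 3 in each genotype. With the number as a replicate block, which uses 3 IRI and 3 NX libraries, EGFP had a log2 change of -1.32 for IRI against NX in TG (edgeR adjusted p = 0.0156) and of 1.13 between the sexes in TG, and 0 neighbours were called in WT. Patz1 and Drg1 (IRI against NX in WT) and Eif4enif1 (in TG) were not called under the block, which tested fewer libraries. The cause of the other changes was not tested. Depth limits Gm12735, whose WT libraries held few counts.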

Other observations

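Hist1h2bm, a histone H2B gene that was chosen after its values were seen, had 6 to 54 counts in each of the 6 TG libraries without surgery (0.103 to 0.784 CPM), against 0 counts in each of the 6 WT libraries without surgery. In the surgery table it had a count in 2 of 6 TG IRI and 2 of 6 WT IRI libraries, and in 1 of 3 TG NX and 0 of 3 WT NX libraries. All its counts above 0 were even, as those of EGFP were (2 to 54 in 11 libraries). It belongs to a cluster of near-identical histone genes, so its counts are uncertain. Without surgery, all TG libraries lay above all WT libraries for 4.52% of tested genes in males and 8.49% in females. The share in both sexes at once was not counted.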
